A study of Homo sapiens with 6 samples.

Results

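The G1/S and DNA replication genes are 42 genes whose products carry a cell from late G1 into S phase and copy its DNA. They were taken by symbol from a named list, and all 42 were found among the 16279 genes of the count and FPKM tables (FPKM, the count divided by gene length and library total, so that levels of different genes can be set side by side). All 42 also passed edgeR's filter on low counts, which kept 13311 genes. 12Z cells, an immortalised epithelial line from human endometriosis, were either left untreated (Control, n = 3) or treated for 48 h with 10 ng/mL of rhChem157S (n = 3), the recombinant active form of the adipokine chemerin, whose treatment label is rhChemerin. By the labels the groups differed in this treatment alone, and all 6 libraries came from 1 cell line, labelled as biological replicates 1 to 3 of each group.

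In G1, cyclin D with CDK4 or CDK6, and then cyclin E with CDK2, phosphorylates the pocket proteins (RB1 and its relatives), which frees E2F transcription factors to switch on genes of S phase. Origins of replication are licensed when ORC, CDC6 and CDT1 load the MCM2 to MCM7 helicase, and they fire when CDC45 and GINS join it. DNA polymerases, the PCNA clamp with its RFC loader, ligase and a supply of deoxynucleotides then complete the copy. In the endometrium, epithelial cells pass through this programme during the proliferative phase of the menstrual cycle.

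Many of these genes carry E2F sites close to their start. The 250 bases before the RefSeq start (assembly GRCh38.p14) are shown for 3 members that hold such sites. These were taken in order of unadjusted p where at most 30 bases of the window were exonic in the gene itself. E2F sites (TTTCCCGC, TTTCGCGC, TTTGCCGC or TTTGGCGC on either strand) are in capitals and each sequence reads 5′ to 3′ on the strand of its gene. The E2F1 window lies at chr20:33686386-33686635 on the minus strand, and its last 19 bases are in an E2F1 exon of GENCODE release 29. The POLA1 window lies at chrX:24693668-24693917 on the plus strand and overlaps no exon. The RBL1 window lies at chr20:37095998-37096247 on the minus strand, where all 250 bases are also exonic in AL136172.1 on the opposite strand.
E2F1: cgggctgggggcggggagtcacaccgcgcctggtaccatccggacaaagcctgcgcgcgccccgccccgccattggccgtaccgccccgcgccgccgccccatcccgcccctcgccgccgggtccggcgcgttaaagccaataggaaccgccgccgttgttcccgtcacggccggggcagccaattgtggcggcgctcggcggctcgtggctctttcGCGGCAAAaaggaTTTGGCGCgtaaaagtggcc
POLA1: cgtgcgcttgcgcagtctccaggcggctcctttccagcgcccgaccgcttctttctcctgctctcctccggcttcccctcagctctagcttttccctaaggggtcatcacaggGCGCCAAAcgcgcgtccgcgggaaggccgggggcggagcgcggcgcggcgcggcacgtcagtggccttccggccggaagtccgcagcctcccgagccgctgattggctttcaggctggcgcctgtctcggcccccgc
RBL1: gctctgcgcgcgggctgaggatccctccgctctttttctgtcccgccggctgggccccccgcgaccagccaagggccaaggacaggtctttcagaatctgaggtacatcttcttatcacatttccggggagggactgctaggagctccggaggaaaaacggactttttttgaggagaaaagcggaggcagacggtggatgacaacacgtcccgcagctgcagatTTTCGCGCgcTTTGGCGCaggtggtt
The first bases of the sites lie at -33 and -20 in E2F1, at -137 in POLA1 and at -26 and -16 in RBL1, counted from the start. These letters are a match of spelling and not a measured site of binding.

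The libraries held 35430881 to 38341643 counts, and the members' own counts ran from 40 in CCND1 to 17189 in MCM4. CCND1 apart, the smallest count of a member in any library was 190, in CCNE1. rhChem157S 3 stood apart from the other libraries. It was the highest library in 34.1% and the lowest in 32.2% of all tested genes, and the highest in 14 and the lowest in 13 of the 42 members (33.3% and 31.0%). Of the epithelial markers, KRT8 (749 to 966 FPKM), KRT18 and KRT19 were abundant and MUC1 was at 6.79 to 14.4 FPKM, but CDH1, EPCAM and KRT5 stayed under 1 FPKM in every library, leaving 5 of 8 at or above it. The epithelial sum was 1596 to 1866 FPKM in the Control group and 1760 to 1976 FPKM in the rhChem157S group. Most of that sum was KRT8, KRT18 and KRT19, which overlapped between the groups, as did KRT7 and KRT5. MUC1 was at 14.4, 13.6 and 10.2 FPKM in the Control libraries and at 9.85, 6.91 and 6.79 FPKM after treatment. CDH1 (0.238 to 0.381 against 0.0859 to 0.201 FPKM) and EPCAM (0.387 to 0.807 against 0.125 to 0.277 FPKM) were also lower without overlap. All 6 of 6 stromal fibroblast markers were at 1 FPKM or more in every library, with a summed level of 1642 to 2147 FPKM in the Control group and 1121 to 2256 FPKM in the rhChem157S group. The leukocyte marker PTPRC did not exceed 0.0535 FPKM, while CD68 and CD14 were present and the leukocyte sum was 122 to 172 against 93.0 to 136 FPKM. The endothelial sum did not exceed 2.01 FPKM. The part of these markers in the results was not tested. In bulk RNA, fewer cells in S phase and less RNA per cell cannot be told apart.

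The first question was whether any member changed with rhChem157S. With edgeR's quasi-likelihood test and Benjamini-Hochberg adjustment over all genes, 0 of the 42 members had an adjusted p under 0.05, against 4 of 13311 genes (0.0301%). At an unadjusted p under 0.05, 7 members were higher (GINS2, ORC1, POLA1, RBL1, RFC2, RRM2 and UHRF1), which is 16.7% against 11.4% of all genes and 16% of the 3995 genes in the middle of the members' abundance. At that level 2 members were lower (CDC6 and E2F1), which is 4.76% against 11.4% of all genes and 7.23% of the 3995. With DESeq2, 5 members had an adjusted p under 0.05 (11.9%, against 9.05% of 14382 genes). GINS2, ORC1, POLA1 and RRM2 were the 4 higher members (9.52%, against 3.75% of all genes and 5.08% of the 3995). E2F1 was the 1 lower member (2.38%, against 5.3% of all genes and 3.05% of the 3995). Limma called 0 members, with 1.34% of all genes called on log2(FPKM + 1) and 0.173% on log2(FPKM + 0.1). The newer edgeR setting (legacy=FALSE) also called 0 members and 0.113% of all genes.

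The number of DESeq2 calls changed with single libraries left out. Without Control 1 it called 1 member, POLA1 (4.72% of all genes), and without Control 2 it called 0 members (2.03% of all genes). Without Control 3 it again called 0 (3.81% of all genes), and without rhChem157S 2 it called E2F1 and ORC1 (4.27% of all genes). Leaving out rhChem157S 1 raised the calls to 7 members (18.3% of all genes), among them RBL1, UHRF1 and CCND1. Leaving out rhChem157S 3 also gave 7 members (12.1% of all genes), among them CDC6 and CCND3. With edgeR, RRM2 was the 1 member called without rhChem157S 1 (6.24% of all genes), 0 were called without rhChem157S 3 (3.07% of all genes), and no gene at all was called without any 1 of the other 4 libraries.

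The sizes of the differences were small. The log2 fold change of rhChem157S-treated cells against the controls was above 0 in 28 members and below 0 in 14, with a median of 0.047 against 0.012 for all tested genes. Each member's 95% interval lay within a log2 fold change of ±0.5 for 31 of 42 members (73.8%, against 41.5% of all tested genes) and within ±1, a 2-fold change, for 41 of 42. The exception was CCND1. The median standard error was 0.095 in the members and 0.148 in all tested genes. Since abundant genes have narrower intervals, and since the log2 fold changes of all genes drifted upward with abundance, from a median of 0.014 at 5 to 10 FPKM to 0.246 above 100 FPKM, the members were set beside genes of like abundance. Against the median of all tested genes whose mean FPKM lay within 1.5 times its own, the median member stood at -0.041, and without rhChem157S 3 at 0.001. In the same 3995 genes, which span the middle of the members' abundance, from 13.1 to 74.4 FPKM, 2599 were above 0 and 1396 below, with a median of 0.084, and 62.5% had an interval within ±0.5.

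**Figure D1:**
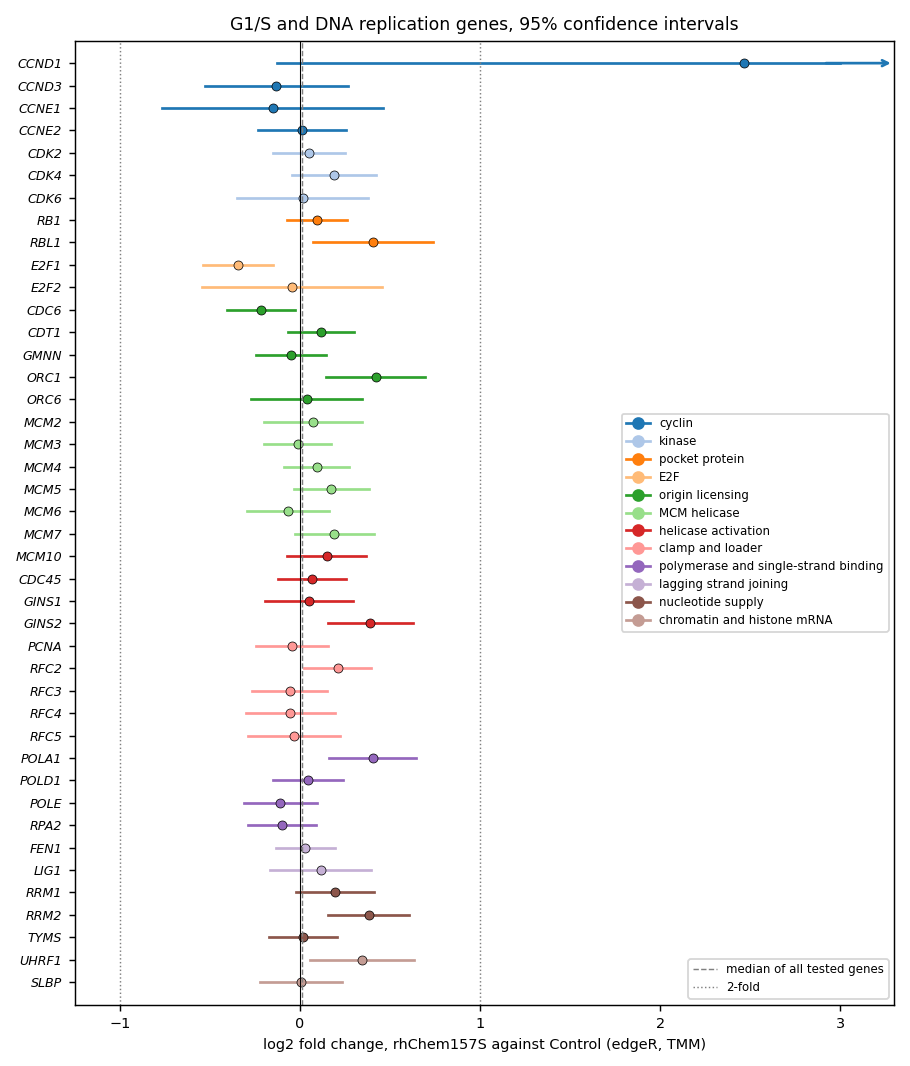
Log2 fold changes of the 42 genes with 95% confidence intervals (edgeR, TMM scaling), coloured by role, with dotted lines at a 2-fold change either way. All intervals but that of CCND1, which is cut at the right edge, stay between the dotted lines.

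Scale matters for differences of this size. The deposited FPKM divide by the library total alone, while edgeR's fold changes use TMM factors, which were 1.037 to 1.054 in the Control group and 0.898 to 1.000 in the rhChem157S group. With library size alone, the median of all genes moved by -0.128 to -0.116, the members' median moved to -0.078, and 13 members were above 0 and 29 below. Of the 42 members, 15 changed sign between the scalings. In TMM-scaled log2 CPM the 3 libraries of one group all lay above those of the other for 14 members in the higher direction (33.3%, against 16.5% of all genes) and for 4 in the lower direction (9.52%, against 16%). In the 3995 genes of the members' middle abundance these shares were 24.2% higher and 10.4% lower. With library size alone these were 6 higher (14.3%, against 7.35% of all genes) and 7 lower (16.7%, against 25.2%). GINS2, ORC1, POLA1, RBL1, RRM2 and UHRF1 were higher without overlap, and CDC6, E2F1, POLE and RPA2 lower without overlap, on both scales. An exact two-sided permutation test of 3 libraries against 3 cannot give p under 0.10.

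**Figure D2:**
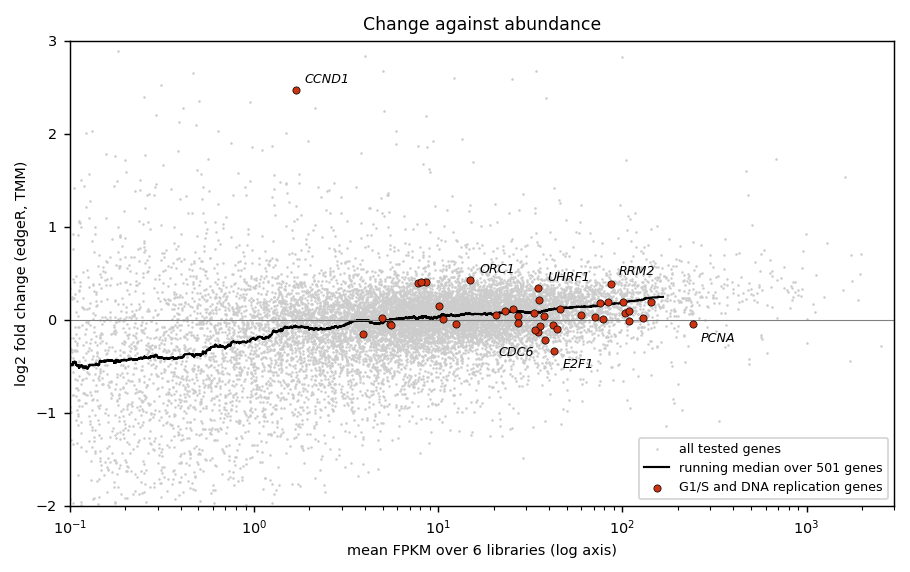
Log2 fold change (edgeR, TMM) against mean FPKM on a log axis for the tested genes (grey, the most extreme lie outside the axes), with their running median (line) and the 42 members (red). The running median climbs with abundance, and PCNA, the most abundant member at a mean of 242 FPKM, lies below the median of genes of like abundance, 0.24.

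The cyclins and kinases open the pathway, and the libraries of the groups overlapped in all 4 cyclins and all 3 kinases. CCND1 encodes cyclin D1, which activates CDK4 and CDK6 (chromosome 11, 69641087 to 69654474, plus strand). It was at 0.266, 0.411 and 1.06 FPKM in the Control libraries and at 0.271, 1.24 and 6.87 FPKM in the rhChem157S libraries. The groups overlapped, and rhChem157S 3 alone stood far above the rest. Its log2 fold change was 2.47 (SE 1.11, adjusted p = 0.235 with edgeR) and 0.47 without rhChem157S 3. CCND1 shares 497 of its 4830 exon bases with LTO1 on the opposite strand, and whether the counting used strand was not given in the sources used here. In all, 16 members share exon bases with genes on the opposite strand, among them CCNE2, CDK4, MCM2 and TYMS. CCND3, the cyclin D that was abundant here, was at 38.4 ± 2.03 FPKM in the Control group and 31.8 ± 6.13 FPKM in the rhChem157S group (SD, n = 3), with overlapping libraries and a log2 fold change of -0.13. Without rhChem157S 3 that was -0.35, and DESeq2 called CCND3 there.

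CCNE1 encodes cyclin E1, the partner of CDK2 at the G1/S border, and was at 3.28, 4.78 and 4.79 FPKM in the Control libraries and at 2.54, 4.08 and 3.89 FPKM in the rhChem157S libraries. The first library of each group was the low one and the groups overlapped (log2 fold change -0.15, SE 0.261). Its relative CCNE2 stood at a log2 fold change of 0.01. CDK4 was at 105, 100 and 90.0 FPKM in the Control libraries and at 113, 94.9 and 99.5 FPKM in the rhChem157S libraries, which overlapped (log2 fold change 0.19, SE 0.099, adjusted p = 0.292 with edgeR). CDK4 shares 1369 of 3168 exon bases with TSPAN31 on the opposite strand. The log2 fold changes of CDK2 and CDK6, the other kinases that act on RB1, were 0.05 and 0.02.

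Among the E2F factors and pocket proteins, E2F1 was lower and RBL1 higher in all rhChem157S libraries. E2F1, the activating E2F (chromosome 20, 33675683 to 33686404, minus strand), was at 49.3, 49.7 and 49.1 FPKM in the Control libraries and at 37.9, 38.5 and 30.7 FPKM in the rhChem157S libraries. All 3 treated libraries lay below all 3 controls, which differed among themselves by an SD of 0.301 FPKM. The log2 fold change was -0.34 (SE 0.083), with an adjusted p of 0.103 in edgeR and 0.019 in DESeq2. It was below 0 with each library left out, from -0.40 to -0.29. E2F2, the other activating E2F in the list, was at 5.75 ± 0.615 and 5.15 ± 1.79 FPKM (SD, n = 3), with a log2 fold change of -0.04 that overlapped between groups.

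RBL1 encodes p107, a pocket protein that holds E2F target genes down (chromosome 20, 36996349 to 37095995, minus strand). It was at 8.03, 7.53 and 7.96 FPKM in the Control libraries and at 8.35, 9.08 and 10.9 FPKM in the rhChem157S libraries. All treated libraries lay above all controls and rhChem157S 3 was the highest. The log2 fold change was 0.41 (SE 0.143, adjusted p = 0.166 with edgeR) and 0.24 without rhChem157S 3. RB1 itself, the retinoblastoma protein, was at 23.7, 23.3 and 23.0 FPKM in the Control libraries and at 23.1, 23.2 and 21.9 FPKM in the rhChem157S libraries. These FPKM overlapped, but in TMM-scaled log2 CPM all treated libraries lay above all controls. The log2 fold change of 0.09 (SE 0.071) turned to -0.037 with library size alone.

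**Figure D3:**
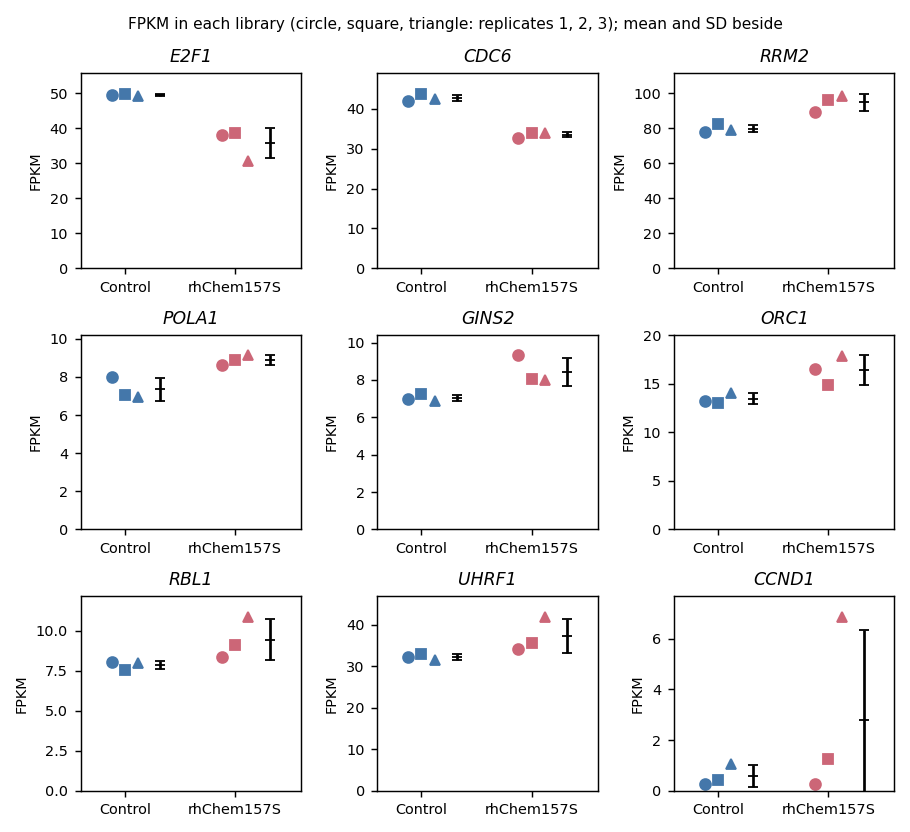
FPKM of 9 members in each library (symbols for replicates 1 to 3), with the mean and SD of each group beside them and axes from 0, where the SD bar of CCND1 is cut. E2F1 and CDC6 are lower in all 3 rhChem157S libraries, the next 6 genes are higher in all 3, and CCND1 is high in rhChem157S 3 alone.

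Origin licensing genes went both ways. CDC6 encodes the ATPase that loads the MCM helicase onto origins (chromosome 17, 40287633 to 40304657, plus strand). It was at 42.0, 43.7 and 42.5 FPKM in the Control libraries and at 32.8, 34.0 and 33.8 FPKM in the rhChem157S libraries. The treated libraries all lay below the controls, with a log2 fold change of -0.22 (SE 0.081) and adjusted p values of 0.177 in edgeR and 0.160 in DESeq2. ORC1 encodes the largest subunit of the origin recognition complex (chromosome 1, 52372829 to 52404459, minus strand). It was at 13.2, 13.0 and 14.1 FPKM in the Control libraries and at 16.5, 14.8 and 17.9 FPKM in the rhChem157S libraries. All treated libraries were above all controls, and the log2 fold change was 0.42 (SE 0.117, adjusted p = 0.123 in edgeR and 0.040 in DESeq2). ORC6, CDT1 and the CDT1 inhibitor GMNN had log2 fold changes of 0.04, 0.12 and -0.05.

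The 6 subunits of the MCM helicase ring were each tested and none passed. Their log2 fold changes ran from -0.07 in MCM6 to 0.19 in MCM7, with a median of 0.082, and all 6 of the 95% intervals lay within ±0.5. In TMM-scaled log2 CPM, MCM4, MCM5 and MCM7 (50% of the 6) were higher in the rhChem157S libraries without overlap. This was so for 16.5% of all genes and 24.2% of the 3995 genes in the middle of the members' abundance. With library size alone all 6 subunits overlapped, beside 7.35% of all genes higher and 25.2% lower without overlap. Genes of like abundance stood at a median of 0.180, and relative to them the helicase subunits stood at -0.10. MCM2 was at 113, 112 and 92.9 FPKM in the Control libraries and at 118, 100 and 87.8 FPKM in the rhChem157S libraries. The libraries overlapped, and replicate 3 was the lowest of each group (log2 fold change 0.07, SE 0.116). RNA levels per length were highest for MCM7, at a mean of 144 FPKM over the 6 libraries, and lowest for MCM6 at 35.9 FPKM. The subunits occur in equal number in the ring as proteins, which were not measured in these libraries.

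Among the factors that activate the helicase, GINS2 differed most. GINS2 encodes a subunit of the GINS complex (chromosome 16, 85676198 to 85690073, minus strand). It was at 6.97, 7.24 and 6.89 FPKM in the Control libraries and at 9.31, 8.03 and 7.99 FPKM in the rhChem157S libraries. The treated libraries were all higher, with rhChem157S 1 on top. The log2 fold change was 0.39 (SE 0.102), with adjusted p values of 0.110 in edgeR and 0.025 in DESeq2. GINS1, a subunit of the same complex, was at 21.1 ± 0.167 and 20.1 ± 3.25 FPKM (SD, n = 3) with a log2 fold change of 0.05. CDC45, which travels with GINS and MCM, was at 33.9, 34.0 and 34.1 FPKM in the Control libraries and at 33.7, 35.2 and 28.9 FPKM in the rhChem157S libraries. rhChem157S 3 was the low library there, and the log2 fold change was 0.07. MCM10, which helps to start unwinding, had a log2 fold change of 0.15.

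**Figure D4:**
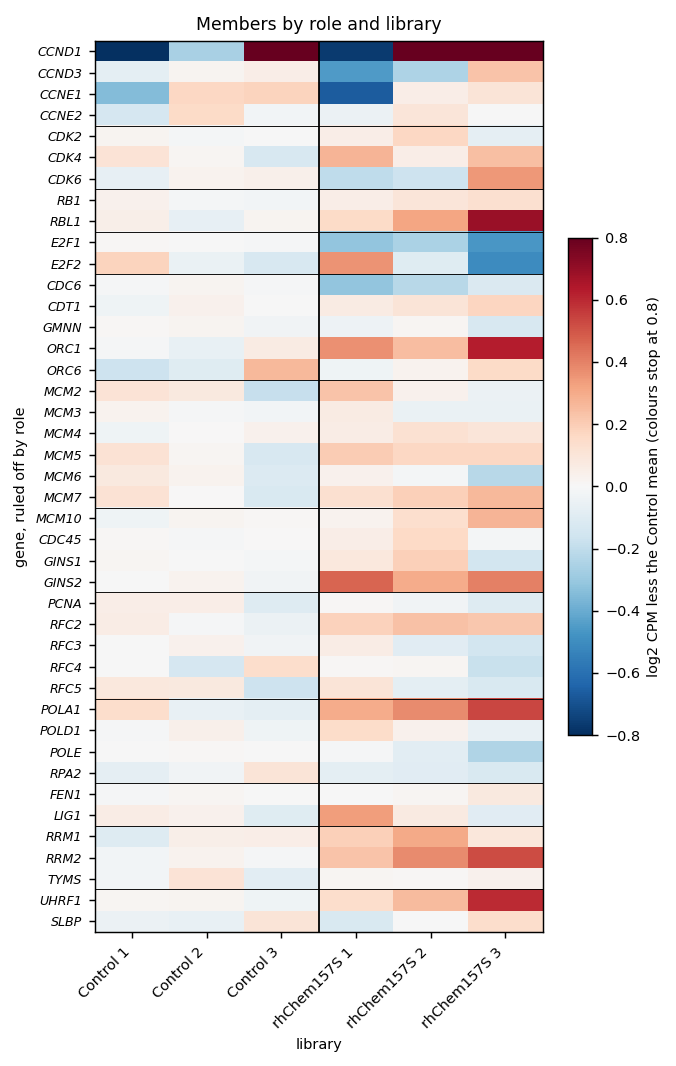
Log2 CPM of each member in each library less the Control mean (colour scale stops at 0.8 either way), ruled off by role. The rows of E2F1 and CDC6 are blue and those of ORC1, GINS2, POLA1 and RRM2 red in all 3 rhChem157S libraries, and RBL1 and UHRF1 are deepest red in rhChem157S 3.

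At the fork, the clamp and its loader ran from -0.06 to 0.21 on the log2 scale. PCNA, the sliding clamp, was at 263, 268 and 238 FPKM in the Control libraries and at 246, 233 and 204 FPKM in the rhChem157S libraries. The libraries overlapped, and the log2 fold change was -0.04 (SE 0.085, 95% interval -0.24 to 0.16). The median of genes of like abundance was 0.24. Of the loader subunits, RFC2 was at 34.1 ± 1.05 and 36.1 ± 1.85 FPKM (SD, n = 3), with a log2 fold change of 0.21 (SE 0.079) and an adjusted p of 0.183 in edgeR, while RFC3, RFC4 and RFC5 ran from -0.06 to -0.03.

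POLA1 encodes the catalytic subunit of DNA polymerase alpha, which lays down the primers (chromosome X, 24693919 to 24996986, plus strand). It was at 8.01, 7.08 and 6.95 FPKM in the Control libraries and at 8.62, 8.87 and 9.13 FPKM in the rhChem157S libraries. Every treated library was above every control, and the log2 fold change was 0.41 (SE 0.103, adjusted p = 0.108 in edgeR and 0.025 in DESeq2). Of the catalytic subunits that extend the strands, POLD1 stood at a log2 fold change of 0.04 and POLE, which makes the leading strand, at -0.11. RPA2, which coats single strands, was at 47.9 ± 3.15 and 41.0 ± 2.86 FPKM (SD, n = 3), with a log2 fold change of -0.10. FEN1, the nuclease that trims Okazaki fragments, was at 72.9, 75.2 and 73.7 FPKM in the Control libraries and at 70.4, 69.5 and 67.1 FPKM in the rhChem157S libraries. The treated FPKM were all lower, but with TMM scaling the log2 fold change was 0.03 (SE 0.071) and the groups overlapped. LIG1, the ligase that joins the fragments, stood at 0.11.

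Of the genes for deoxynucleotide supply, RRM2 differed most. RRM2 encodes the small subunit of ribonucleotide reductase that cells make for S phase (chromosome 2, 10120698 to 10131419, plus strand). It was at 78.0, 82.1 and 79.2 FPKM in the Control libraries and at 89.5, 96.3 and 98.5 FPKM in the rhChem157S libraries. All treated libraries were higher, with a log2 fold change of 0.38 (SE 0.096, adjusted p = 0.106 in edgeR and 0.017 in DESeq2). RRM2 shares 1077 of its 5323 exon bases with AC007240.1 on the same strand. RRM1, the large subunit, had a log2 fold change of 0.19, and TYMS, which makes thymidylate, one of 0.02.

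UHRF1 encodes the factor that brings DNA methylation back onto new strands (chromosome 19, 4903080 to 4962154, plus strand). It was at 32.3, 33.0 and 31.6 FPKM in the Control libraries and at 34.1, 35.7 and 42.0 FPKM in the rhChem157S libraries. The treated libraries were all higher and rhChem157S 3 was the highest. The log2 fold change was 0.34 (SE 0.124, adjusted p = 0.171 with edgeR) and 0.20 without rhChem157S 3. SLBP, which binds the stem loop of histone mRNA, stood at 0.01.

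The members were then split by the E2F site in their promoter. RefSeq promoters, from 250 bases before to 50 after the start, were found for 36 members and not for CCND1, CCNE2, CDK2, MCM4, MCM5 and RPA2. An E2F site as spelled above was in 18 of 36 (50%), against 5.29% of the promoters of 10873 tested genes and 3.33% of all 27305 promoters. CCAAT, the motif bound by NF-Y, was on either strand of 18 of 36 (50%), against 36.4% and 35.7%. Sites on opposite strands can share bases. The 18 members with an E2F site stood at a median log2 fold change of 0.034, 10 of them above 0 and 8 below, and ran from -0.34 in E2F1 to 0.41. The 18 without one stood at a median of 0.040, 13 of them above 0 and 5 below, and ran from -0.15 to 0.42 in ORC1. E2F1, POLA1 and RBL1, whose sequences are printed above, all hold E2F sites and stood at -0.34, 0.41 and 0.41. They were taken by their small p in these data, so their values are no separate result about E2F sites.

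The rest of the pathway was described from a list of 56 other genes of G1/S entry and replication, of which 55 were tested. CCND2 was not. With edgeR 0 of the 55 passed an adjusted p of 0.05, with 9 higher (16.4%) and 2 lower (3.64%) at an unadjusted p under 0.05, beside 11.4% of all genes each way. DESeq2 called 2, both higher (3.64%, beside 3.75% of all genes called higher and 9.05% called in all). These were CCNA2, the cyclin of S phase and G2, at 32.4 ± 1.05 and 40.3 ± 3.20 FPKM (SD, n = 3), and POLD2, a subunit of DNA polymerase delta, at 92.8 and 114 FPKM. Their log2 fold changes were 0.44 and 0.43, with adjusted p values of 0.071 and 0.088 in edgeR. The list's median was 0.102, with 37 genes above 0 and 18 below. The 2 lower at an unadjusted p under 0.05 were E2F5, a repressive E2F, at -0.53 and MCM8, which acts in recombination, at -0.24. Their adjusted p values were 0.155 and 0.187 in edgeR. The largest log2 fold change upward was 0.45 in ORC5 (SE 0.187, adjusted p = 0.210 in edgeR). KEGG counts 17 of the 42 members in DNA replication and 22 in the cell cycle, and 10 in neither. The 18 genes of the KEGG DNA replication pathway outside the members had a median of 0.131, and of 0.057 relative to genes of like abundance. EdgeR called 0 of the 18 and DESeq2 called 1, which was higher, beside 3.75% of all genes called higher.

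Lists of CDK inhibitors and of G2/M markers were described beside the members. Of 7 CDK inhibitors, 3 were above 0 and 4 below, and the groups overlapped in 5. The 2 without overlap were both lower (28.6%, beside 16% of all genes). EdgeR called 0 of the 7 and DESeq2 called 2, both lower, beside 5.3% of all genes called lower. CDKN1A, which encodes p21, was at 245 ± 88.6 FPKM in the Control group and 101 ± 6.99 FPKM in the rhChem157S group (SD, n = 3, log2 fold change -1.14, SE 0.231), and CDKN2B, which encodes p15, was at 14.0 and 6.15 FPKM. The adjusted p values of the pair were 0.077 and 0.095 in edgeR. Relative to genes of like abundance the CDK inhibitors' median was -0.047, and with library size alone 1 of them was above 0 and 6 below. All 20 of 20 G2/M markers were above 0, beside 6886 of 13311 tested genes. EdgeR called 0 of the 20 and DESeq2 12, all higher (60%, beside 3.75% of all genes called higher). The markers' median log2 fold change was 0.38. On the same relative scale that median was 0.26, beside the -0.041 of the G1/S and DNA replication genes. In the rhChem157S libraries 1 to 3 the median G2/M marker stood 0.41, 0.38 and 0.39 above the Control mean, and the median member 0.058, 0.056 and 0.085. With library size alone 19 of the 20 markers were above 0, at a median of 0.26, and 24 of the 55 other genes of the pathway were above 0 and 31 below. Without rhChem157S 3, edgeR called BUB1, CDC20, CENPE, CENPF, MKI67 and TTK among the markers, beside 3.07% of all genes. Without rhChem157S 1 it called MKI67 and TTK, beside 6.24% of all genes. No test was made between the lists.

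**Figure D5:**
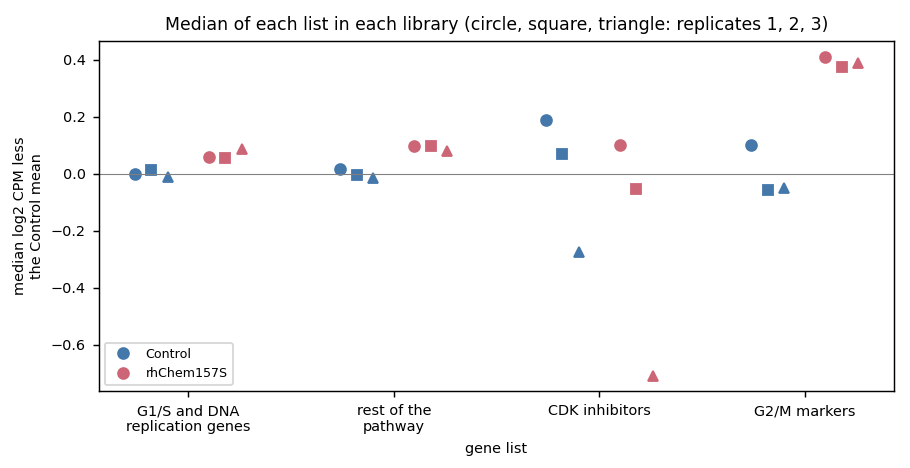
Median log2 CPM less the Control mean in each library for the 42 members, the 55 other genes of the pathway, 7 CDK inhibitors and 20 G2/M markers (symbols for replicates 1 to 3). The members' rhChem157S medians lie between 0.056 and 0.085, those of the G2/M markers between 0.38 and 0.41, and those of the CDK inhibitors between -0.71 and 0.10, with Control medians from -0.27 to 0.19.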

How the data were processed

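RNA of 12Z cells was sequenced in 3 Control and 3 rhChem157S libraries. Per the submitters' processing notes and the study's methods, reads were trimmed with fastp, aligned with HISAT2 to GRCh38.p13 and counted per gene with HTSeq. The authors deposited raw read counts and FPKM of the same genes, and the FPKM equalled the count over a fixed length and the library total in 100% of 89195 values (within 0.1%). The strand setting is not given in the sources used here.

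Counts were tested in R 4.3.3 with edgeR 4.0.16 (TMM, filterByExpr, quasi-likelihood test, Benjamini-Hochberg over 13311 genes). Standard errors came from the log2 fold change and its F value. Log2 CPM used a prior count of 2. As alternatives, DESeq2 1.42.0 was run on the counts and limma 3.58.1 on the log2 of FPKM plus 1 or 0.1. Others were legacy=FALSE, RLE factors, library size alone, other filters, the replicate block, other abundance windows and leaving out each library. DESeq2 without each library, and the split of groups that do not overlap with library size alone, were added after the data were seen. The scripts were tested on simulated data. Libraries of a group differed by more than sampling noise, and p-values measure the spread between these libraries.

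The members and all lists were chosen with earlier results of these data known. Values per library were given for the 10 members with the smallest unadjusted p, apart from RFC2, given by group means, and for a fixed member of each role. Promoters are from RefSeq, printed in order of p where at most 30 bases of the window were exonic in the gene itself. That limit was not planned beforehand, and it left out GINS2, with 45 such bases. Gene coordinates are from GENCODE release 29 on GRCh38.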

Additional observations from a re-analysis of the deposited data

How the results depend on the processing

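The number of members with an adjusted p under 0.05 was 0 with edgeR and stayed 0 under limma, the other edgeR settings and both other filters, but was 5 with DESeq2. Leaving out 1 library gave 0 to 1 with edgeR and 0 to 7 with DESeq2. For the rest of the pathway, 55 tested genes, the number was 0 with edgeR, 2 with DESeq2 and 0 to 4 with edgeR and 1 library left out. It was 4 without rhChem157S 3, beside 3.07% of all genes called, and 3 without rhChem157S 1, beside 6.24%. The members' median log2 fold change of 0.047 was -0.081 and -0.085 with limma on log2(FPKM + 1) and log2(FPKM + 0.1) and -0.078 with library size alone. These settings scale by the library total alone, while with RLE factors the median was 0.042. With 1 library left out it ran from 0.036 to 0.082. The rest of the pathway moved from 0.102 to -0.032, -0.033 and -0.031 with the same limma settings and library size alone, in that order. With 1 library left out it ran from 0.058 to 0.111. The members' median relative to genes of the same abundance ran from -0.074 to 0.0011 with 1 library left out, the last without rhChem157S 3, and the cause was not tested.

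Single members near 0 turned sign. In the order limma on log2(FPKM + 1), limma on log2(FPKM + 0.1) and library size alone, RB1 was at -0.035, -0.037 and -0.037, MCM2 at -0.057, -0.058 and -0.053, CDC45 at -0.063, -0.065 and -0.060, and FEN1 at -0.099, -0.100 and -0.100. With 1 library left out CCNE1 ran from -0.304 to 0.050, positive without rhChem157S 1, and MCM2 from -0.019 to 0.127, negative without rhChem157S 1 or Control 3.

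Replicate numbers were shared between the groups, and whether they mark pairs cannot be told from so few libraries. The deviations of same-numbered libraries from their group means correlated at 0.241, 0.0015 and 0.247. Those of libraries with different numbers ran from -0.306 to 0.106, and Control 2 correlated best with rhChem157S 1 (0.106). With the replicate block, edgeR called 1 gene in place of 4 and 0 members, and the members' median was 0.045. An unadjusted p under 0.05 was then reached by 3367 genes in place of 3038. The log2 fold change of CCND1 was 1.725 with the block and 2.466 without it. Depth limits CCND1 most, with 40 counts in its lowest library, and every interval rests on 3 libraries a group.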
